A study of Sus scrofa with 4 samples.

Results

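TF (ENSSSCG00000011640), the symbol of transferrin, and AHSG (ENSSSCG00000011799), that of alpha-2-HS-glycoprotein or fetuin-A, are 2 of the 43243 genes whose expression was measured in pig liver. Both were chosen by their abundance: they were selected on their TPM (a transcript abundance corrected for transcript length and scaled to 1000000 in each library) in these same liver libraries, with earlier results known. Their levels and ranks are therefore a description and were not tested. ENSSSCG00000011640 is called TF by its symbol alone, which RefSeq gives both to transferrin and to a neighbouring transferrin-like gene, the porcine inhibitor of carbonic anhydrase. Which of these its TPM covers was not settled here.

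Transferrin is the main iron carrier of blood plasma. Hepatocytes secrete it, and cells take up the iron it carries through transferrin receptors on their surface. AHSG is a plasma glycoprotein of the cystatin superfamily, also secreted by hepatocytes, which binds calcium phosphate and keeps mineral from precipitating in body fluids. Its protein is known for high levels in fetal blood.

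RNA-seq was carried out on liver of female Berkshire × Tibetan hybrid pigs, labelled as crossbred domestic pigs, at the end of suckling (28 days, n = 2) and at sexual maturity (180 days, n = 2). The pigs of a stage were full sibs, and each stage used different pigs. Library preparation removed rRNA and kept the strand of each transcript. TPM does not carry the number of reads behind each value, so no counting error is given. The comparison of adult with suckling liver asks how the expression of liver genes differs between these ages. Its p-values rest on the spread between these 2 full-sib pigs per stage. Limma drew the spread of each gene toward that of genes of like abundance, so that gene alone does not set its p-value.

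The label of the tissue was checked against hepatocyte markers, all 6 of which were found. Their summed level was 12.7% and 17.7% of the TPM total in the suckling libraries and 17.7% and 19.9% in the adult libraries, with albumin (ALB) the most abundant and no marker at 0. Suckling replicate 2 stood apart from the other libraries in several genes. AHSP, a hemoglobin chaperone of red cell precursors, was at 73.1 TPM in that library and at 5.34 in suckling replicate 1, 9.74 in adult replicate 1 and 5.69 in adult replicate 2. The metallothionein gene MT1A was at 2689 TPM in suckling replicate 2, against 14237 in suckling replicate 1, 20370 in adult replicate 1 and 8442 in adult replicate 2. The unnamed gene ENSSSCG00000024911 was at 4517 TPM there, against 32436 in suckling replicate 1, 27997 in adult replicate 1 and 40665 in adult replicate 2. In albumin it was suckling replicate 1 that stood apart, at 114446 TPM against 163842 to 189061 TPM in the other libraries.

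TF, the symbol of the iron carrier, was at 19143 and 16691 TPM in suckling liver and at 16030 and 18632 TPM in adult liver. The highest value was in suckling liver and the lowest in adult liver, but the ranges of the stages overlapped. The means were 17917 ± 1734 TPM (SD, n = 2) in suckling and 17331 ± 1840 TPM (SD, n = 2) in adult liver. TF took 1.91% and 1.67% of all TPM in the suckling libraries and 1.60% and 1.86% in the adult libraries. On the log2(TPM + 1) scale the difference between adult and suckling liver was -0.05 (95% interval -1.56 to 1.46), with an adjusted p of 0.974 by limma with Benjamini-Hochberg adjustment over 21615 genes. The replicates of TF differed 1.15-fold in suckling and 1.16-fold in adult liver. The interval is wide for such values, because limma drew the spread toward that of genes of like abundance. The test does not show that the level of TF was the same at both ages. The sign of this difference turned under median-of-ratios scaling (0.058), under rescaling without the 10 most abundant genes (0.086) and when suckling replicate 1 (0.050) or adult replicate 1 (0.060) was left out. It was -0.15 without suckling replicate 2.

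AHSG, the mineral-binding glycoprotein, was at 18594 and 12000 TPM in suckling liver and at 8479 and 6892 TPM in adult liver. Both adult values lay below both suckling values, and the suckling replicates differed more from each other than the adult ones. The means were 15297 ± 4663 TPM (SD, n = 2) and 7685 ± 1122 TPM (SD, n = 2), a ratio of 1.99 of the suckling to the adult mean. Its share of all TPM was 1.86% and 1.20% in the suckling libraries and 0.848% and 0.689% in the adult libraries. On the log2(TPM + 1) scale the difference was -0.97 (95% interval -2.35 to 0.41), with an adjusted p of 0.465 by limma with Benjamini-Hochberg adjustment and an unadjusted p of 0.132. The difference was -0.65 without suckling replicate 1 and -1.28 without suckling replicate 2. It was -1.12 without adult replicate 1 and -0.82 without adult replicate 2. In whole tissue, fewer cells of a type and less RNA per cell cannot be told apart.

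**Figure D1:**
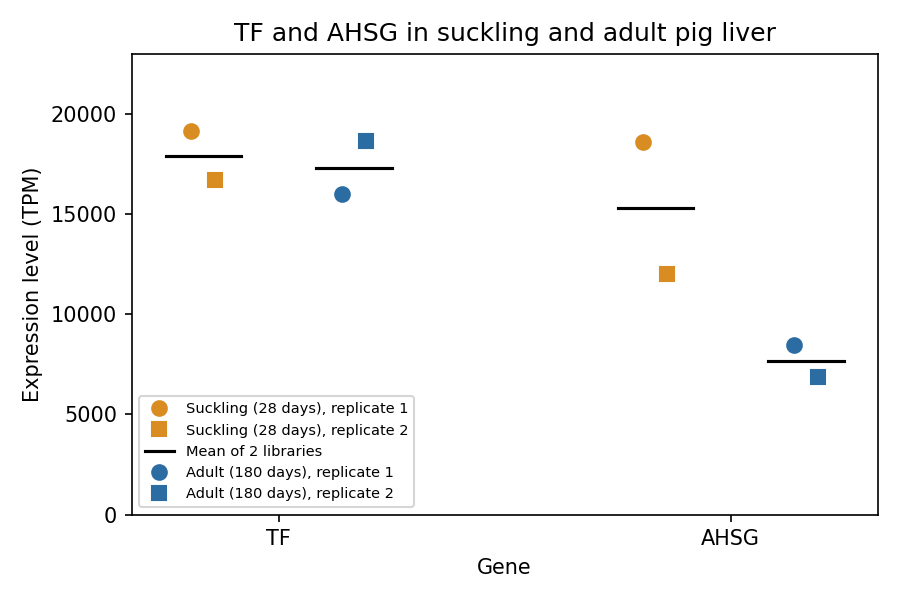
TPM of TF and AHSG in each liver library; circles are replicate 1, squares are replicate 2, and bars are the means of the 2 libraries of a stage. The stages overlap for TF, while the adult AHSG values of 8479 and 6892 TPM lie below the suckling values of 18594 and 12000 TPM.

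Values that do not overlap between the stages were common among the genes tested. Both adult libraries were below both suckling libraries in 5113 of 21615 genes (23.7%) and above them in 5696 (26.4%). Among the 117 protein-coding genes (PCGs) that averaged 1000 TPM or more, 40 were lower (34.2%) and 22 were higher (18.8%), so the pattern of AHSG was not rare among abundant genes. In the order of stage differences of these 117 genes it was number 4 from the lowest, and their median was -0.13. Limma with Benjamini-Hochberg adjustment called 0 of 21615 genes (0%) at an adjusted p under 0.05, and the smallest adjusted p was 0.130. At an unadjusted p under 0.05, 1555 genes were lower (7.19%) and 1466 higher (6.78%) in adult liver, and neither TF nor AHSG was among them. The split of lower and higher genes moved with the filter, to 1401 lower and 586 higher at a mean TPM of 1 or more. Without a filter it was 1764 lower and 2170 higher, and without the trend 1923 lower and 1154 higher. It also moved with the scaling, to 1102 lower and 1914 higher under median-of-ratios scaling and to 985 lower and 2034 higher without the 10 most abundant genes.

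The median difference over 13000 tested PCGs was -0.12 on the log2 scale, and it moved to -0.02 under quantile normalization and -0.01 without the 10 most abundant genes. Relative to that median, AHSG was at -0.84 with TPM as deposited, -0.83 under median-of-ratios scaling, -0.83 under quantile normalization and -0.82 without the 10 most abundant genes. TF was at 0.07, 0.09, -0.37 and 0.10 in the same order. Median-of-ratios scaling adds the same 0.11 to the log2 difference of every abundant gene, and leaving out the 10 most abundant genes adds 0.13.

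The ratio of the members within a library does not change when all its values are multiplied by 1 factor, as in median-of-ratios scaling, but quantile normalization changes it. TF was 1.03 and 1.39 times AHSG in TPM in the suckling libraries and 1.89 and 2.70 times AHSG in the adult libraries. All 4 libraries had more TF than AHSG, and both adult ratios were above both suckling ratios. The mean log2 ratio was 0.26 ± 0.31 (SD, n = 2) in suckling and 1.18 ± 0.36 (SD, n = 2) in adult liver. The difference of 0.92 gave p = 0.333 in a two-sided exact permutation test, the smallest p that 2 against 2 libraries can give. Without suckling replicate 2 the difference was 1.13, and under quantile normalization, an alternative chosen after seeing the data, it was 0.46.

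Among PCGs, TF ranked 3 by mean TPM in both stages, behind albumin and ENSSSCG00000024911. AHSG ranked 4 in suckling liver and 8 in adult liver. In suckling liver the order by mean TPM was ENSSSCG00000024911 at 18477 ± 19742 TPM (SD, n = 2), TF, AHSG and the fibrinogen beta chain gene FGB at 13947 ± 1257 TPM (SD, n = 2). The suckling values of TF overlapped those of both its neighbours, and so did those of AHSG. For ENSSSCG00000024911 and TF this rested on suckling replicate 2, since in suckling replicate 1 they were at 32436 and 19143 TPM. In adult liver ENSSSCG00000024911 was above TF without overlap, at 34331 ± 8957 TPM (SD, n = 2). MT1A, a metal-binding protein gene and the next below TF, overlapped it at 14406 ± 8434 TPM (SD, n = 2). Adult AHSG lay between FGB at 8681 ± 1389 TPM (SD, n = 2) and the fibrinogen gamma chain gene FGG at 7474 ± 625 TPM (SD, n = 2), and its values overlapped those of both. In single libraries TF ranked 3, 2, 4 and 3 and AHSG ranked 4, 5, 10 and 10, in the order suckling replicates 1 and 2 and adult replicates 1 and 2.

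Albumin, the most abundant PCG in each of the 4 libraries, was at 114446 and 165615 TPM in suckling liver and at 163842 and 189061 TPM in adult liver. The lower suckling value was below the other 3 libraries, which overlapped between the stages. In TPM, TF reached 16.7% and 10.1% of albumin in the suckling libraries and 9.78% and 9.86% in the adult ones. AHSG reached 16.2% and 7.25% of albumin at the suckling stage, against 5.17% and 3.65% at the adult stage. The remaining PCGs among the 10 most abundant were COX1, a mitochondrial subunit of cytochrome oxidase, the ferritin light chain gene FTL and the unnamed ENSSSCG00000005488. Of these 10 PCGs, AHSG, FGB and FGG were lower in both adult libraries, FTL was higher in both, and 6 overlapped, while 35.1% of the 13000 PCGs tested were lower and 15.4% higher in both adult libraries.

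The PCGs whose profile over the 4 libraries was most like that of each member were found by Euclidean distance between centred log2(TPM + 1) values, among 890 PCGs that averaged 100 TPM or more. Nearest to TF were PDZK1, a scaffold protein gene (distance 0.06), EIF4H, a translation initiation factor gene (0.08), and SDHC, a subunit of succinate dehydrogenase (0.08). Nearest to AHSG were NUPR1, a stress-responsive nuclear protein gene (0.19), SERPINA7, which encodes thyroxine-binding globulin (0.22), and the unnamed ENSSSCG00000034220 (0.24). NUPR1 was at 563 and 436 TPM in suckling liver and at 277 and 223 TPM in adult liver. The members were at a distance of 1.03 from each other. AHSG was number 743 of 890 in the order of likeness to TF. TF was number 456 of 890 in the order of likeness to AHSG, near the middle.

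Transferrin works with other iron genes, and 9 of 10 in an iron handling list were found in the table, all but FTH1. Of all 21615 genes tested, 6.78% were higher and 7.19% lower at an unadjusted limma p under 0.05. Of the 8 tested besides TF, 1 was higher and 0 lower at that threshold, and limma with Benjamini-Hochberg adjustment called 0 in either direction. Their median difference was -0.01 on the log2 scale, against 0.02 over all 21615 genes tested and -0.12 over the PCGs tested. Both adult libraries were below both suckling libraries for 2 of the 8 and above them for 3, against 23.7% and 26.4% of all genes and 35.1% and 15.4% of PCGs. TF was the most abundant of the 9 genes found in each stage, and FTH1 could not be compared.

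TFRC, the receptor that takes up iron-loaded transferrin, was at 173 and 293 TPM in suckling liver and at 27.5 and 162 TPM in adult liver. Both adult values were lower, and adult replicate 1 was far below adult replicate 2. The difference was -1.73 on the log2(TPM + 1) scale with an adjusted p of 0.428 by limma with Benjamini-Hochberg adjustment, and it was -0.47 without adult replicate 1 and -2.99 without adult replicate 2. TFR2, the receptor with which hepatocytes sense iron-loaded transferrin, was at 174 and 173 TPM in suckling liver and at 200 and 178 TPM in adult liver. The adult values of TFR2 were just above the suckling values, with a difference of 0.12 and an adjusted p of 0.778 by limma with Benjamini-Hochberg adjustment. This difference was 0.04 without adult replicate 1 and 0.20 without adult replicate 2. Under median-of-ratios scaling it was 0.23, under quantile normalization 0.30 and without the 10 most abundant genes 0.26.

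HAMP encodes hepcidin, the liver hormone that limits iron export from cells. It was at 0.0915 and 0.0794 TPM in suckling liver and at 10.96 and 9.91 TPM in adult liver. All 4 values were far below those of TF, and the stages were well apart. The difference was 3.40 on the log2(TPM + 1) scale, which understates the change of such a low gene, with an adjusted p of 0.130 by limma with Benjamini-Hochberg adjustment. The adjusted p ranged from 0.0395 to 0.481 over the alternatives and was under 0.05 in 2 of them, at 0.0395 with a pseudocount of 0.1 and at 0.0468 when the filter was raised to an average of 1 TPM. HAMP was the gene of the iron list with an unadjusted p under 0.05.

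AHSG belongs to a group of related genes on chromosome 13 that also holds fetuin-B (FETUB), histidine-rich glycoprotein (HRG) and kininogen (KNG1), all of which encode plasma proteins with cystatin domains. In RefSeq's annotation of Sscrofa11.1, the build used by the authors, AHSG lies on the plus strand at chr13:124426313-124438848 with 7 coding exons. FETUB follows at chr13:124480456-124494197, HRG at chr13:124505305-124516387 and KNG1 at chr13:124521276-124557384, all on the same strand. FETUB was at 374 and 165 TPM in suckling liver and at 277 and 303 TPM in adult liver. HRG was at 2932 and 844 TPM in suckling liver and at 2444 and 2478 TPM in adult liver. KNG1 was at 1540 and 1158 TPM in suckling liver and at 1210 and 1323 TPM in adult liver. In all 3 neighbours the stages overlapped, and suckling replicate 2 was the lowest of the 4 libraries, whereas the lowest AHSG values were the adult ones.

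The differences of the neighbours on the log2(TPM + 1) scale were 0.22 for FETUB, 0.64 for HRG and -0.08 for KNG1. Their adjusted p values by limma with Benjamini-Hochberg adjustment were 0.822, 0.659 and 0.916. Without suckling replicate 2 the differences were -0.37 for FETUB and -0.25 for HRG, so the direction of both rested on that library. KNG1 turned positive under the other scalings, but relative to the median of PCGs it was positive under each of the 4 scalings, at 0.04 with TPM as deposited, 0.06 under median-of-ratios scaling, 0.05 under quantile normalization and 0.07 without the 10 most abundant genes. Relative to that median it was negative without a filter (-0.049), without suckling replicate 2 (-0.17) and without adult replicate 2 (-0.024).

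Both members are plasma proteins, and 30 of 33 genes in a list of plasma proteins secreted by the liver were found. FGA, HP and ORM1 were not found by symbol, and many protein-coding identifiers have no symbol. Ranks and shares therefore hold only among the 30 found. Among these, TF was the second most abundant gene in every library, and AHSG ranked 3 and 5 in the suckling and 5 and 6 in the adult libraries. With albumin left out, TF took 14.3% and 13.1% of the summed TPM of the genes found in the suckling libraries and 13.5% and 17.5% in the adult ones. For AHSG these shares were 13.9% and 9.43% at the suckling stage and 7.15% and 6.49% at the adult stage. By stage difference AHSG was number 2 from the lowest of the 30 and TF was number 14.

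Of the 28 other plasma protein genes, 14 had a positive and 14 a negative difference, with a median of 0.03 on the log2 scale against 0.02 over all genes and -0.12 over the PCGs tested. Under median-of-ratios scaling it was 0.14, with 0.06 over all genes and -0.03 over PCGs. Without suckling replicate 2 it was -0.03, with 0.02 over all genes and -0.11 over PCGs. Both adult libraries were below both suckling libraries for 7 of the 28 (25%) and above them for 6 (21.4%), against 23.7% and 26.4% of all genes and 35.1% and 15.4% of PCGs tested. When suckling replicate 2 was left out the count of lower genes was 13, but lying below 1 library is easier for any gene, and 33.6% of all genes and 46.9% of PCGs tested then did so. Limma with Benjamini-Hochberg adjustment called 0 of the 28. Of all genes tested, 7.19% were lower and 6.78% higher at an unadjusted limma p under 0.05, and of the 28 there was 1 in each direction. These were chosen after their values were seen: APOA2, an apolipoprotein of high-density lipoprotein, with a difference of -1.19 and an adjusted p of 0.288, and ITIH1, a heavy chain of the inter-alpha-trypsin inhibitors, with 0.98 and 0.311.

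Fibrinogen genes stood next to AHSG in abundance. FGB was at 13058 and 14835 TPM in suckling liver and at 9664 and 7699 TPM in adult liver. FGG was at 12102 and 13790 TPM in suckling liver and at 7916 and 7032 TPM in adult liver. Both chains were lower in both adult libraries, with differences of -0.69 for FGB and -0.79 for FGG and adjusted p values of 0.558 and 0.495 by limma with Benjamini-Hochberg adjustment. Unlike AHSG, both were higher in suckling replicate 2 than in suckling replicate 1.

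**Figure D2:**
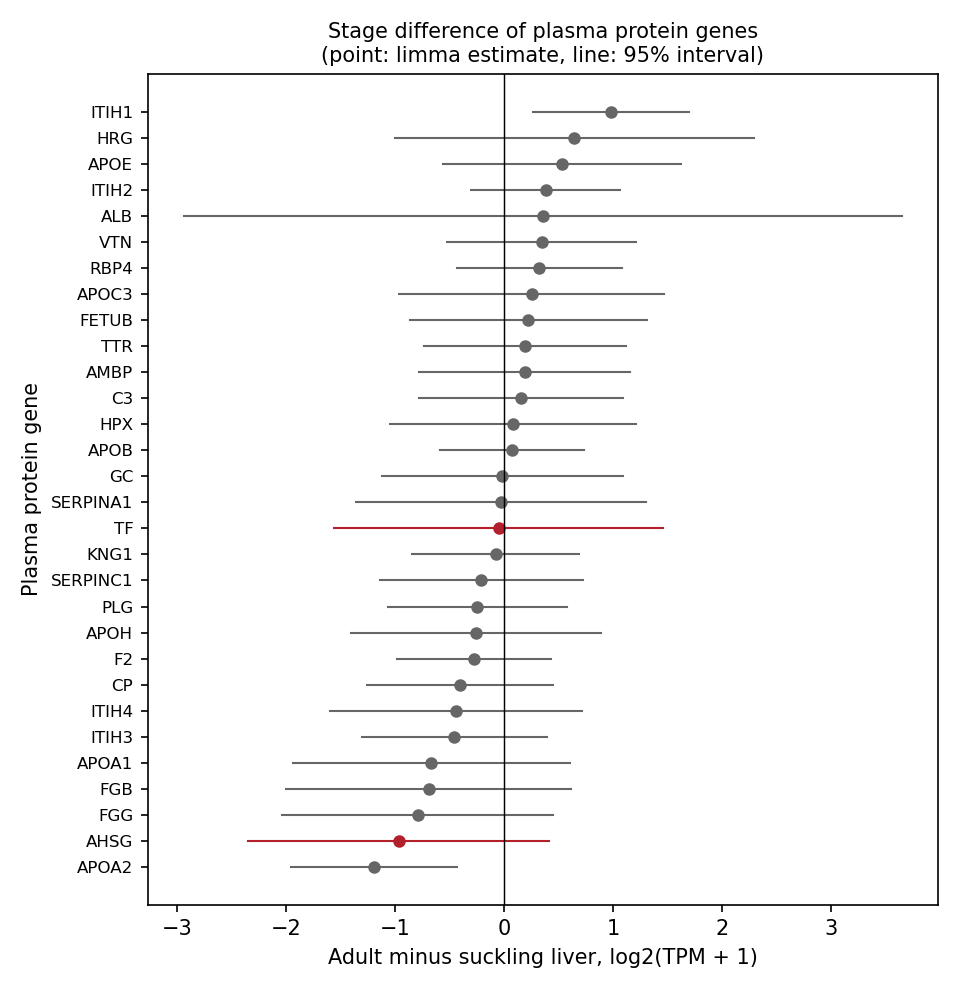
Difference between adult and suckling liver on the log2(TPM + 1) scale for the 30 plasma protein genes; points are limma estimates, lines are 95% intervals, and TF and AHSG are in red. AHSG at -0.97 is number 2 from the lowest and TF at -0.05 is number 14; TF turns positive under median-of-ratios scaling.

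Markers of other liver cells were measured in the same libraries, and the background for their counts is the 35.1% of PCGs tested that were lower and the 15.4% that were higher in both adult libraries. All 3 Kupffer cell markers found, of 4 listed, were lower in both adult libraries, as AHSG was. Their summed level was 162 and 194 TPM in suckling liver and 98.5 and 63.5 TPM in adult liver, with CD163 the most abundant. Of the 4 lymphocyte markers 1 was lower and 2 were higher in both adult libraries, and their sum was 64.5 and 70.1 TPM in suckling and 38.6 and 37.3 TPM in adult liver, most of it PTPRC. Of the 3 endothelial markers found 2 were lower, and the sum, led by CLEC4G, was 278 and 353 TPM in suckling and 402 and 239 TPM in adult liver. Of the 4 stellate cell or fibroblast markers 1 was lower and 1 higher, with COL3A1 the most abundant and a sum of 226 and 363 TPM in suckling and 207 and 180 TPM in adult liver. Of the 3 cholangiocyte markers found 1 was lower and 1 higher, and the sum, led by EPCAM, was 10.04 and 8.42 TPM in suckling and 7.54 and 7.17 TPM in adult liver. The 3 erythroid markers found overlapped between the stages, with a sum of 957 and 2445 TPM in suckling and 1861 and 914 TPM in adult liver, most of it HBB. None of these markers was at 0 in all libraries. Of the 6 hepatocyte markers 1 was lower, 1 was higher and 4 overlapped. The part of cell makeup in the level of AHSG was not tested.

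The symbol TF is given in RefSeq to 2 neighbouring genes on the plus strand of chromosome 13. Transferrin lies at chr13:74930655-74970599 with 18 coding exons, and the porcine inhibitor of carbonic anhydrase, a transferrin-like plasma protein, at chr13:74862502-74907059 with 17. The table of gene names used here gives the symbol TF for ENSSSCG00000011640 without a position, so the locus is not known from it. The coding sequences are 77.1% identical over 2076 aligned bases. Their longest shared run is 69 bases, shorter than the read length of 100 bases. Whether reads were divided correctly between these genes was not tested. The stretch around the longest shared run is shown because reads are hardest to tell apart there; it lies in 1 coding exon of each gene, at chr13:74944302-74944430 in transferrin and chr13:74886534-74886662 in the inhibitor, both plus strand, and capitals mark the 6 bases that differ.
Transferrin: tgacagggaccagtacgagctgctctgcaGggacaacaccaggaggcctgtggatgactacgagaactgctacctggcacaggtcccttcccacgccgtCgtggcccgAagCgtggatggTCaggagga
Inhibitor of carbonic anhydrase: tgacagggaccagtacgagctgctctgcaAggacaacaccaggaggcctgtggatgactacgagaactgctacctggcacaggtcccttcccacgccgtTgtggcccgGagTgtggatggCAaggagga

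AHSG and its neighbour FETUB differ more. Their coding sequences are 60.5% identical over 994 aligned bases, and their longest shared run is 12 bases.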

How the data were processed

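Gene-level TPM from 4 liver RNA-seq libraries was used as deposited. The authors trimmed the reads, aligned them to Sscrofa11.1 with STAR 2.6.0c and estimated TPM with Kallisto 0.43.0 over protein-coding genes, lncRNAs and transcripts of unknown coding potential (TUCPs), with replicates kept apart; tool versions are from the submitters' processing notes and the study's methods. Another 12 columns of per-sample values were not used here. Symbols were found for 15509 of 22040 protein-coding identifiers.

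Log2(TPM + 1) values of the stages were compared with limma 3.58.1 (R 4.3.3), using a variance trend over intensity and Benjamini-Hochberg adjustment over the genes with a mean TPM above 0.5 (protein-coding) or 0.1 (lncRNAs, TUCPs), and a threshold of 0.05. Both members passed this filter. The procedure was tested on simulated data. Python 3.11.15, pandas 2.3.3, numpy 2.4.6, scipy 1.17.1 and matplotlib 3.10.9 were used for the rest, including the exact permutation test. The members and lists were chosen with earlier results of these data known.

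Named genes were the members, the 3 nearest protein-coding genes of each by profile, their neighbours in abundance, the 10 most abundant protein-coding genes, and up to 8 genes of the plasma protein, iron handling and cell marker lists, besides markers that led a list. Alternatives were another pseudocount, other filters and scalings, no trend, a replicate block and each replicate left out.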

Additional observations from a re-analysis of the deposited data

How the results depend on the processing

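The difference of AHSG between adult and suckling liver kept its sign under all 12 alternatives, and neither member passed the adjusted threshold under any of them. Its adjusted p by limma with Benjamini-Hochberg adjustment ranged from 0.294 to 0.722 over these, and its unadjusted limma p, 0.132 with the main settings, was 0.0328 at a mean TPM of at least 1 and 0.022 without the trend. The difference of AHSG ranged from -1.28 to -0.65 with 1 library left out. The difference of TF ranged from -0.16 to 0.060 with 1 library left out and was -0.38 under quantile normalization, where it moved most. It turned to 0.058 under median-of-ratios scaling and 0.086 without the 10 most abundant genes, which by construction add 0.11 and 0.13 to every abundant gene. The log2 ratio of TF to AHSG differed between the stages by 0.66 to 1.18 with 1 library left out and by 0.46 under quantile normalization.

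Leaving the 10 most abundant genes out of the total raises the TPM of all genes by construction. Mean TPM was then 25848 and 27505 for TF and 21995 and 12168 for AHSG, in suckling and adult liver. Among all genes of the table TF ranked 4 in suckling and 5 in adult liver, and AHSG ranked 5 and 10. Among PCGs alone and with 1 library left out, TF ranked 2 to 3 in suckling and 3 to 4 in adult liver. AHSG then ranked 4 to 5 among PCGs in suckling liver and 10 in adult liver.

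Genes called by limma at the adjusted threshold numbered 1 higher and 1 lower with a pseudocount of 0.1, and 1 higher and 1 lower at a mean TPM of at least 1, where fewer genes were tested. These were HAMP and ENSSSCG00000054576, which is listed at 0 in both adult libraries and was named after its values were seen. At an unadjusted p under 0.05, 586 genes were higher and 1401 lower at a mean TPM of at least 1, and leaving out 1 library gave 803 to 1571 higher and 902 to 1385 lower genes.

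Among other named genes, differences with 1 library left out ranged from -0.37 to 0.81 for FETUB and from -0.25 to 1.54 for HRG, both negative without suckling replicate 2, and from -0.28 to 0.13 for KNG1, positive without suckling replicate 1. KNG1 was at 0.028 under median-of-ratios scaling, 0.032 under quantile normalization and 0.056 without the 10 most abundant genes. A library left alone in its stage was assumed to vary like the other stage. The alternatives for other genes and the plasma protein list, and quantile normalization of the ratio, were chosen after seeing the data.

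The replicate numbers do not pair the pigs, since the stages are different animals; across genes the replicate differences of the stages correlated at 0.0785. With the replicate block the differences were -0.05 for TF and -0.97 for AHSG, 0 genes passed the adjusted threshold in either direction, and 1449 higher and 1479 lower genes had an unadjusted p under 0.05.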
